A study of Enchytraeus crypticus with 60 samples.

Results

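Silver nitrate exposure for 7 d was studied in Enchytraeus crypticus, a small white oligochaete worm that lives in soil and litter and is widely used in laboratory tests of soil toxicity. The data were the 3 arrays of AgNO3 EC20, the 3 arrays of AgNO3 EC50 and the 3 control arrays (CT) of day 7, which are 9 of the 60 arrays of the series and were chosen by their labels alone. EC20 and EC50 are the concentrations of silver that lower reproduction by 20% and by 50%, and the labels give the effect level and not the amount of silver in the soil. Every array held RNA from a pool of 20 whole adult worms with a well developed clitellum, the swollen girdle that marks a mature oligochaete. All 9 pools came from LUFA 2.2, a natural standard soil, which was left un-spiked for CT. Each group had 3 biological replicates. A pool of whole bodies mixes all tissues, so a shift in the share of a tissue cannot be told apart from a change of RNA level within its cells.

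As background, AgNO3 is the salt that is set beside silver nanoparticles in exposure studies because it dissolves readily and supplies silver as free ions. Silver ions bind strongly to sulfur groups of proteins, and animals are known to answer metals of this class with metal-binding proteins, antioxidant enzymes and chaperones. The array files name each probe only by an assembled sequence (contig followed by a number) or by a single sequencing read (names that begin with GYUW2K), without a gene name, a function or a place in a genome. The probes are therefore given below by these identifiers, and no role is attached to any of them.

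A probe was analysed where its signal was positive and significantly above background on all 60 arrays, which held for 23179 of 43750 gene probes (53%). Of these, 48.2% were named by a contig. The levels below are log2 values of the processed signal after normalization between arrays, so that a difference of 1 is a doubling. Changes are compared within a probe, and a probe is called dim or bright only by its signal on the array, which is no measure of transcript amount between probes. A probe was called, or counted among the differentially expressed genes (DEGs), where the limma test over all 20 groups gave a false discovery rate (FDR) under 5%.

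The 9 arrays were alike in signal and differed in how many probes stood clear of background. The median processed signal was between 11.5 and 19.9 fluorescence units, within the range of 10.6 to 31.4 over the 60 arrays. Probes well above background made up 51%, 47.9% and 46% of gene probes on the CT arrays, 49%, 54.8% and 58.9% on the EC20 arrays, and 59.6%, 61.7% and 65.7% on the EC50 arrays. The EC50 arrays were thus above all CT and EC20 arrays in this share, and the part of this share in the results was not tested. Across kept probes, log2 levels correlated at 0.975 to 0.987 between replicates of a group and at 0.972 to 0.987 between arrays of different groups, as a description over probes of the same design. The median SD of a probe between replicates was 0.25 in CT, 0.22 at EC20 and 0.22 at EC50, against 0.19 to 0.36 over the 20 groups. All 3 CT arrays were scanned on 1 day, together with EC20 replicate 1 and EC50 replicates 1 and 2, whereas EC20 replicates 2 and 3 and EC50 replicate 3 were scanned on another day.

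Relative to the series mean, the normalized arrays averaged -0.04 ± 0.02 in CT on the log2 scale (SD, n = 3), 0.11 ± 0.01 at EC20 (n = 3) and 0.01 ± 0.01 at EC50 (n = 3). EC20 exceeded CT by 0.15, EC50 exceeded CT by 0.06, and EC50 was below EC20 by 0.09 (difference -0.09). The normalization centres the arrays of a group on each other, so the small SDs and the lack of overlap between groups are its product. The exact two-sided permutation test over arrays (p = 0.1 in each comparison, the smallest value that 3 arrays against 3 allow, with 20 splits) was fixed by this and carries no information. The EC20 offset was 0.314 under MedianCD scaling and lay between -0.05 and 0.017 under median, quantile, 75th percentile and spike-in scaling and under normalization of the 9 arrays alone, so its size and sign depended on the scaling.

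At EC20, 35 probes differed from CT at an FDR under 5% in limma, or 0.151% of the 23179 tested. Of these, 30 were higher in silver (0.129%) and 5 were lower (0.0216%), so 85.7% of the calls were over-expressed. The calls were sizeable: the median absolute log2 change was 1.39, which is 2.62-fold, with a range of 0.6 to 4.04. Over all kept probes the median change was 0.17, with quartiles at -0.04 and 0.35. Taken relative to that median, the 30 higher calls had a median change of 1.18 and the 5 lower calls of -2.77. All 35 kept their sign, which was settled in advance, since the smallest call (0.6) exceeded that median. Without adjustment, 2753 probes had p under 5%, 2567 of them higher. The calls used the spread of all 20 groups: with the compared groups fitted alone 0 of the 35 were called, and with the 3 groups of day 7 alone 1 was.

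The higher EC20 calls were mostly dim probes. Their median log2 level in CT was 4.38, against 6.56 over all kept probes, and 8 of the 30 (26.7%) were not well above background on any CT array, against 6.13% of all kept probes. The 5 lower calls had a median CT level of 8.82, and all were well above background on the 3 CT arrays. Contigs made up 22 of the 30 higher calls and 3 of the 5 lower ones.

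The number of higher calls at EC20 depended on the scaling between arrays, and the lower calls did so less. MedianCD scaling gave 694 higher and 7 lower calls with a median change over all probes of 0.33. Median scaling gave 2 higher and 6 lower, quantile normalization 3 and 6, the 75th percentile 2 and 4, normalization of the 9 arrays alone 2 and 4, and spike-in scaling 0 and 1. Called under the 5 scalings other than spike-in were contig03857 and contig22277 among the 30 higher probes and 4 of the 5 lower ones, all but GYUW2K401B0YKR. Every one of the 35 kept its direction under each of these scalings. Their smallest change was 0.6, and the median over all probes lay between -0.03 and 0.33 under them, so a reversal was unlikely in advance. Without EC20 replicate 1 there were 3 calls, without CT replicate 2 there were 102.

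**Figure D1:**
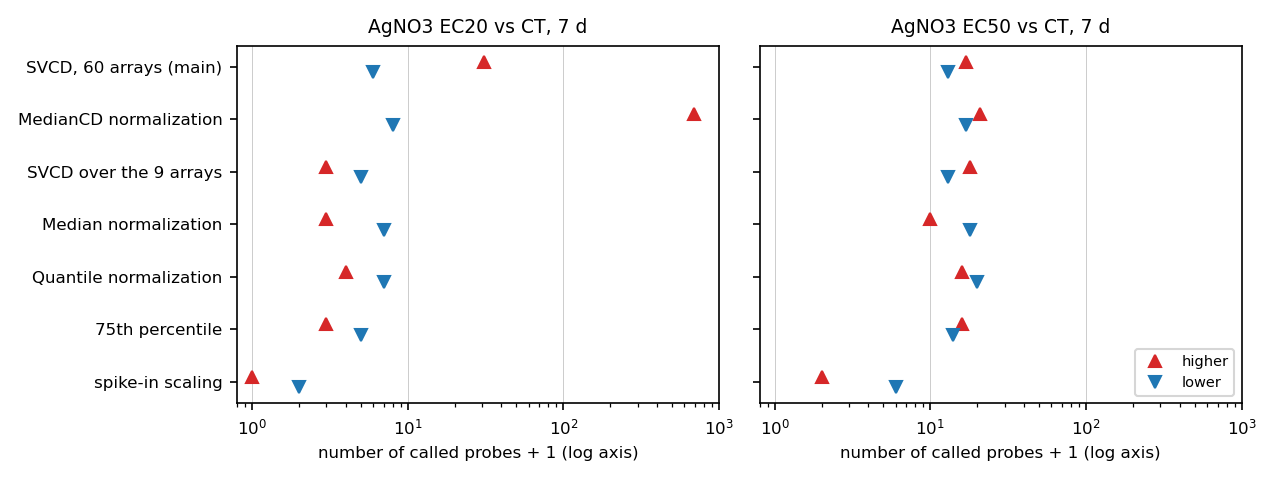
Number of called probes plus 1 (log axis) under 7 ways of scaling the arrays, for EC20 against CT (left) and EC50 against CT (right), with red triangles for probes higher in silver and blue triangles for probes lower. Higher EC20 calls ran from 0 to 694 and lower ones from 1 to 7, while EC50 gave 1 to 20 higher and 5 to 19 lower calls.

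At EC50, 28 probes differed from CT (0.121% of those tested). The split was more even than at EC20, with 16 probes higher (0.069%) and 12 lower (0.0518%), so that 57.1% of the calls were over-expressed. The median absolute change of the calls was 1.5, or 2.82-fold, with a range of 0.76 to 5.52. The median over all probes was 0.03, and relative to it the higher calls had a median of 1.23 and the lower calls of -1.67. Unadjusted p fell under 5% for 1704 probes, of which 1153 were higher. With the compared groups fitted alone 1 of the 28 was called, and with the 3 groups of day 7 alone 2 were. The higher calls had a median CT level of 6.03 and the lower calls of 8.58, and 2 of the 16 higher probes were not well above background on any CT array.

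The EC50 calls varied less with the scaling. MedianCD gave 20 higher and 16 lower calls, median scaling 9 and 17, quantile normalization 15 and 19, the 75th percentile 15 and 13, and normalization of the 9 arrays alone 17 and 12, whereas spike-in scaling gave 1 and 5. All 12 lower probes and 9 of the 16 higher ones were called under the 5 scalings other than spike-in. Higher calls outnumbered lower ones in the counts given first, and lower calls outnumbered higher ones under median, quantile and spike-in scaling. Without EC50 replicate 2 the count was 11, and without CT replicate 2 it was 68.

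Both doses were compared with the same 3 CT arrays, so their results are not independent of each other. Called at both doses were 10 probes, 5 of them higher and 5 lower, all in the same direction at both. They made up 28.6% of the EC20 calls and 35.7% of the EC50 calls. A further 25 probes were called at EC20 alone, and 18 at EC50 alone. All 25 probes of the first kind had a change of the same sign at EC50. The count of 10 was 2 without EC20 replicate 1 and 44 without CT replicate 2. The largest 2 and smallest 2 changes among them were named by rule, and the other 6 were named after their values were seen, as the rest of lists of 5.

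Among the 5 probes higher at both doses, contig22277 was the most even. Its log2 levels were 3.35, 2.80 and 3.56 in CT, 5.39, 5.60 and 5.64 at EC20, and 5.68, 5.37 and 5.62 at EC50. All 6 silver arrays lay above all 3 CT arrays, and the doses overlapped. The probe was not well above background on any CT array, so the increase is a bound: at least 3.14-fold at EC20 (measured log2 change 2.30, SE 0.33, limma adjusted p = 0.000229) and at least 3.17-fold at EC50 (2.32, adjusted p = 9.94e-05). EC50 minus EC20 was 0.01, with a 95% interval of -0.64 to 0.67.

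The other dim member, contig17320, had levels of 4.33, 3.98 and 3.53 in CT, 6.77, 5.88 and 6.15 at EC20, and 6.45, 6.76 and 5.86 at EC50. It stood well above background on 1 of the CT arrays. The silver arrays of either dose were well clear of CT and lay over each other. The change was 2.32 at EC20 (SE 0.50, 5.0-fold, limma adjusted p = 0.036) and 2.41 at EC50 (5.32-fold, adjusted p = 0.0213), and the doses differed by 0.09 with a 95% interval of -0.92 to 1.10.

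The brightest probe of the 5, contig03857, read 9.55, 9.38 and 9.56 in CT, 11.53, 11.14 and 10.65 at EC20, and 10.94, 11.40 and 10.51 at EC50. The spread between silver arrays (SD 0.44 at both doses) was wider than in CT (SD 0.1), yet the lowest silver array was above the highest CT array. It rose 3.06-fold at EC20 (log2 1.61, SE 0.28, limma adjusted p = 0.00949) and 2.74-fold at EC50 (1.45, adjusted p = 0.0104). For GYUW2K402FSTVY the levels were 5.92, 5.67 and 5.98 in CT, 6.86, 6.69 and 6.62 at EC20, and 6.72, 6.91 and 6.65 at EC50. This was the smallest of the shared increases, 1.82-fold (0.87, adjusted p = 0.0271) and 1.87-fold (0.90, adjusted p = 0.00796), with a tight spread in every group (SD 0.13 to 0.17). Values for contig09176 were 6.59, 6.25 and 5.90 in CT, 7.05, 7.58 and 8.15 at EC20, and 7.42, 8.10 and 7.19 at EC50. Its increase was 2.54-fold at EC20 (1.35, adjusted p = 0.0321) and 2.50-fold at EC50 (1.32, adjusted p = 0.0299). Across these 5 probes EC50 minus EC20 ran from -0.16 to 0.09.

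**Figure D2:**
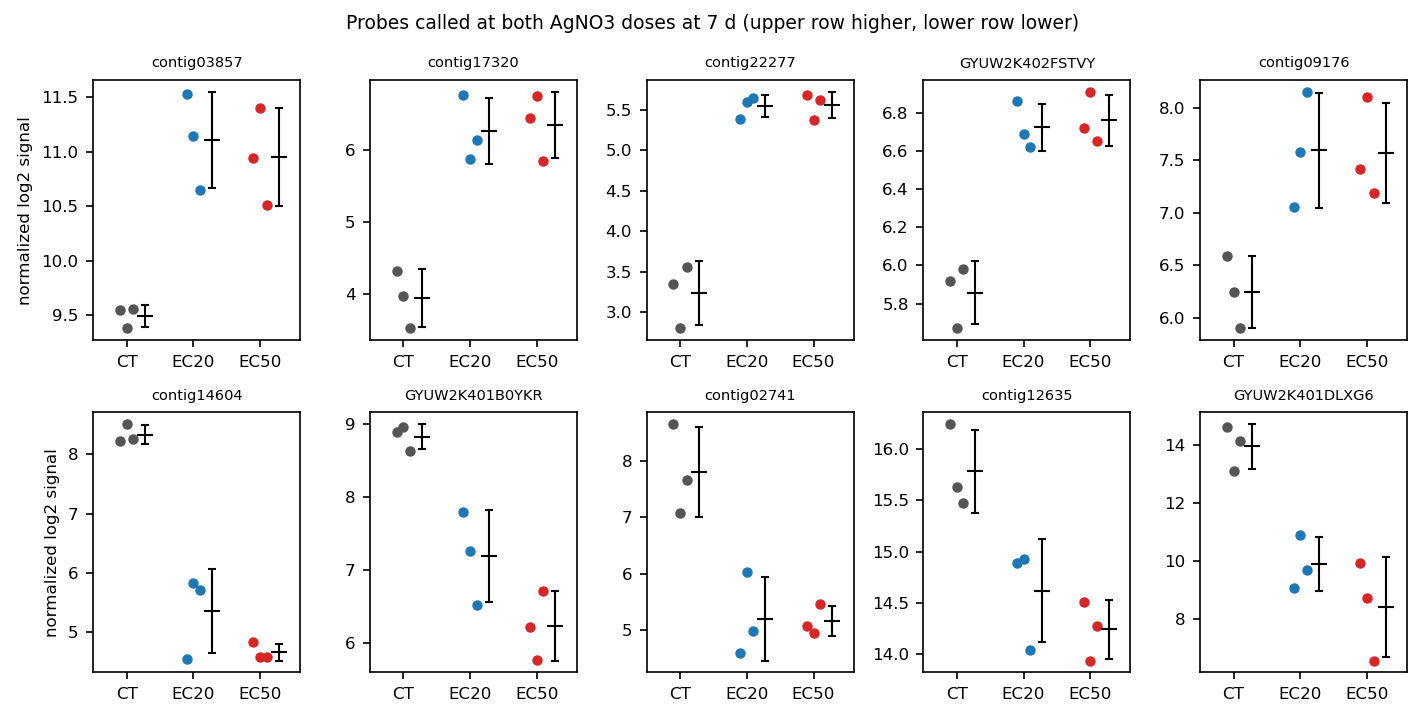
Normalized log2 signal of the 10 probes called at both AgNO3 doses at 7 d, 1 panel for each probe with its own vertical scale, with 1 point for each array of CT, EC20 and EC50 and the mean ± SD (n = 3) beside it. In the upper 5 panels all silver arrays lie above CT, in the lower 5 all lie below, and the drop of GYUW2K401DLXG6 is the deepest, from 13.95 to 8.42 at EC50.

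The 5 probes lower at both doses had a median change of -2.60 at EC20 and -2.65 at EC50, against 1.61 and 1.45 for the 5 higher ones. The deepest change of the whole comparison was that of GYUW2K401DLXG6, a very bright probe in CT, where it read 14.61, 13.11 and 14.12. At EC20 it read 9.09, 10.91 and 9.71, and at EC50 9.95, 8.74 and 6.58. No silver array came near the CT arrays, while the doses overlapped. The fall was 16.5-fold at EC20 (log2 -4.04, SE 0.83, limma adjusted p = 0.029) and 46.0-fold at EC50 (-5.52, adjusted p = 0.000306). EC50 minus EC20 was -1.48 with a 95% interval of -3.15 to 0.20, so a difference between the doses was not resolved. The spread at EC50 was wide (SD 1.71).

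The second deepest was contig14604, at 8.22, 8.51 and 8.26 in CT, 4.55, 5.83 and 5.71 at EC20, and 4.83, 4.58 and 4.59 at EC50. The EC50 arrays were close to each other, and EC20 replicate 1 lay just below them. Its fall was 7.82-fold at EC20 (-2.97, SE 0.58, limma adjusted p = 0.0271) and 12.7-fold at EC50 (-3.67, adjusted p = 0.000618).

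In contig02741 the CT arrays were spread, at 8.66, 7.08 and 7.66, and the silver arrays read 4.59, 6.03 and 4.97 at EC20 and 5.06, 4.94 and 5.45 at EC50. The groups still did not overlap with CT, and the doses were nearly level, with falls of 6.08-fold (-2.60, limma adjusted p = 0.0271) and 6.26-fold (-2.65, adjusted p = 0.0138). GYUW2K401B0YKR read 8.89, 8.95 and 8.63 in CT, 7.79, 7.26 and 6.53 at EC20, and 6.23, 5.77 and 6.72 at EC50. It fell 3.09-fold at EC20 (-1.63, adjusted p = 0.0416) and 5.99-fold at EC50 (-2.58, adjusted p = 9.94e-05), and the 95% interval of EC50 minus EC20 (-1.69 to -0.23) left out 0, although that difference did not pass the FDR (adjusted p = 0.517). The brightest of all, contig12635, read 16.24, 15.63 and 15.47 in CT, 14.89, 14.93 and 14.04 at EC20, and 14.51, 13.94 and 14.28 at EC50. Its falls were the smallest of the 5, 2.23-fold (-1.16, adjusted p = 0.0321) and 2.90-fold (-1.54, adjusted p = 0.000726). The median EC50 minus EC20 of these 5 probes was -0.70, with a range of -1.48 to -0.04.

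The shared calls were tried again with each of the 9 arrays left out. Only contig22277 was called at both doses each time. At EC50 the falls of GYUW2K401DLXG6, contig14604, GYUW2K401B0YKR and contig12635 were also called each time, which makes 5 of the 10 probes at EC50 and 1 of the 10 at EC20. The other EC20 calls were lost without EC20 replicate 1 (limma adjusted p from 0.0772 for GYUW2K401B0YKR and contig12635 to 0.229 for contig17320), except that of contig09176, which was lost without EC20 replicate 2 (0.138), EC20 replicate 3 (0.0907) or CT replicate 3 (0.218). GYUW2K401B0YKR lost its EC20 call on leaving out any CT or EC20 array. The other EC50 calls, those of contig17320, contig03857, GYUW2K402FSTVY, contig09176 and contig02741, were lost without EC50 replicate 2 (adjusted p from 0.0638 for GYUW2K402FSTVY to 0.25 for contig09176). Removing CT replicate 1 ended both calls of contig02741 (adjusted p = 0.127 and 0.13) and the EC20 calls of contig12635 (0.167) and GYUW2K401DLXG6 (0.0867), and removing CT replicate 3 ended both calls of contig17320 (0.17 and 0.123) and the EC50 call of contig09176 (0.211).

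The size of the shared increases depended on the background correction, which here was that of the processed signal. With normexp correction, which adds an offset of 50 to every signal and so shrinks the changes of dim probes, contig22277 changed by 0.38 at EC20 (limma adjusted p = 0.73) and 0.45 at EC50 (adjusted p = 0.441), below the bounds given for it. Without the 2 arrays of other groups on which the normexp fit failed, a setting chosen after seeing the data, its changes were 0.59 (adjusted p = 0.0314) and 0.61 (adjusted p = 0.0104). In the same setting contig17320 changed by 0.75 (adjusted p = 0.358) and 0.86 (adjusted p = 0.238), against 0.55 and 0.71 with all arrays. For the brighter contig03857 the changes were 1.55 (adjusted p = 0.0276) and 1.49 (adjusted p = 0.0127) without the 2 arrays. The falls of GYUW2K401DLXG6 were -4.00 and -5.04 with normexp on all arrays and those of contig14604 -2.01 and -2.27, all 4 of them called. At 1 dose alone, contig15396 changed by 0.49 at EC20 (adjusted p = 0.775) and contig15846 by 0.82 at EC50 (adjusted p = 0.337).

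Some treated arrays shared a slide with a CT array, which allows a difference free of slide and scan day. Because the groups of these probes do not overlap, the sign of such a difference was already fixed and only its size is informative. For GYUW2K401DLXG6 it was -4.65 (EC50 replicate 1 minus CT replicate 1), -5.38 (EC50 replicate 2 minus CT replicate 3) and -4.02 (EC20 replicate 1 minus CT replicate 2). For contig14604 it was -3.40, -3.68 and -3.96 in the same order, and for contig22277 2.33, 1.80 and 2.58. The within-slide differences lay on either side of the group differences for contig14604 and contig22277, and for GYUW2K401DLXG6 they were no larger. The median over all kept probes was 0.02, 0.02 and 0.16 in these pairs. With slide as a block in the fit, 157 probes were called at EC20 (146 higher, 11 lower; 27 of the 35 among them) and 192 at EC50 (130 higher, 62 lower; 27 of the 28 among them). With scan day as a block the counts were 29 (22 of the 35 among them) and 44 (28 of the 28).

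Of the probes called at 1 dose alone, several were far apart between the doses. The highest measured change at EC20, that of contig15396, rested on 1 array. Its levels were 2.84, 3.12 and 2.64 in CT, 7.86, 4.71 and 3.91 at EC20, and 3.88, 3.75 and 4.32 at EC50. EC20 replicate 1 stood far above the other EC20 arrays, which were near the EC50 arrays. The probe was not well above background on any CT array, so its rank is not established. For the mean of the EC20 arrays the increase was at least 3.03-fold (measured log2 change 2.62, SE 0.53, limma adjusted p = 0.0271). At EC50 the change was 1.11 (adjusted p = 0.641). The EC20 mean was raised by replicate 1, and the bound does not hold for the other EC20 arrays taken singly. Without EC20 replicate 1 the change was 1.43 and the call was lost (adjusted p = 0.263), as it was without CT replicate 3 (0.0835).

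The highest measured changes at EC50 were those of contig15846 and contig19057. The first, also not well above background on any CT array and so without an established rank, read 3.42, 3.57 and 2.97 in CT, 4.25, 4.67 and 4.59 at EC20, and 7.14, 6.53 and 4.94 at EC50. Its increase was at least 4.98-fold for the mean of the EC50 arrays (2.88, SE 0.55, limma adjusted p = 0.0104), against a change of 1.18 at EC20 (adjusted p = 0.394). This bound does not hold for EC50 replicate 3 taken alone, which read 4.94. The EC50 arrays lay above the EC20 arrays, but replicate 3 only just, and the call was lost without EC50 replicate 1 (adjusted p = 0.152), EC50 replicate 2 (0.0873) or CT replicate 3 (0.0653). The second, contig19057, read 8.30, 7.66 and 8.46 in CT, 8.81, 8.73 and 9.22 at EC20, and 10.34, 11.55 and 10.78 at EC50. It rose 6.73-fold at EC50 (2.75, SE 0.55, adjusted p = 0.0138), against 0.78 at EC20 (adjusted p = 0.599). Here the EC50 arrays were clear of the other 6, and EC50 minus EC20 was 1.97 with a 95% interval of 0.86 to 3.08, which did not pass the FDR (adjusted p = 0.265). Without EC50 replicate 2 its call at EC50 was lost (adjusted p = 0.125).

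A probe that fell at EC50 with EC20 at the CT level was contig04717, named after its values were seen because it is also called against the particles below. It read 9.96, 10.04 and 9.61 in CT, 9.78, 9.88 and 9.34 at EC20, and 8.13, 7.35 and 8.55 at EC50. The fall at EC50 was 3.63-fold (-1.86, SE 0.34, limma adjusted p = 0.00796), and the change at EC20 was -0.21 (adjusted p = 0.85). The difference between the doses was -1.66 (95% interval -2.35 to -0.96) and missed the FDR (adjusted p = 0.111). The EC50 call was lost without EC50 replicate 2 (adjusted p = 0.127).

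**Figure D3:**
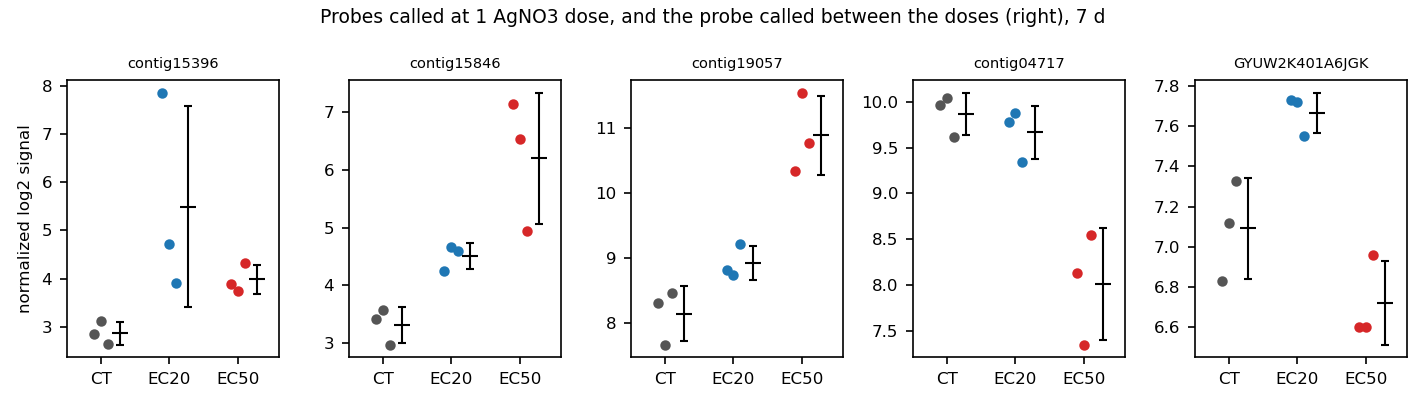
Normalized log2 signal of 4 probes called at 1 AgNO3 dose and, at the right, of GYUW2K401A6JGK, the probe called between the doses, 1 point for each array with the mean ± SD (n = 3) and a vertical scale for each panel. In contig15396 1 EC20 array at 7.86 lies far above the other 2, and in contig04717 the EC50 arrays (7.35 to 8.55) lie below the other 6.

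Set side by side, 3 of the 4 sets of calls had a smaller median change at the other dose, which follows in part from choosing probes for a large change, and no test was made. The 30 higher EC20 calls had median changes of 1.35 at EC20 and 0.69 at EC50, with EC50 above EC20 in 3 of them. For the 16 higher EC50 calls the medians were 0.92 at EC20 and 1.26 at EC50, with EC50 above EC20 in 14. The 12 lower EC50 calls had medians of -0.74 at EC20 and -1.64 at EC50, and all 12 were lower at EC50 than at EC20. The 5 lower EC20 calls went the other way, with medians of -2.60 at EC20 and -2.65 at EC50, a median EC50 minus EC20 of -0.70, and all 5 lower at EC50. Over all kept probes the medians were 0.17 and 0.03.

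**Figure D4:**
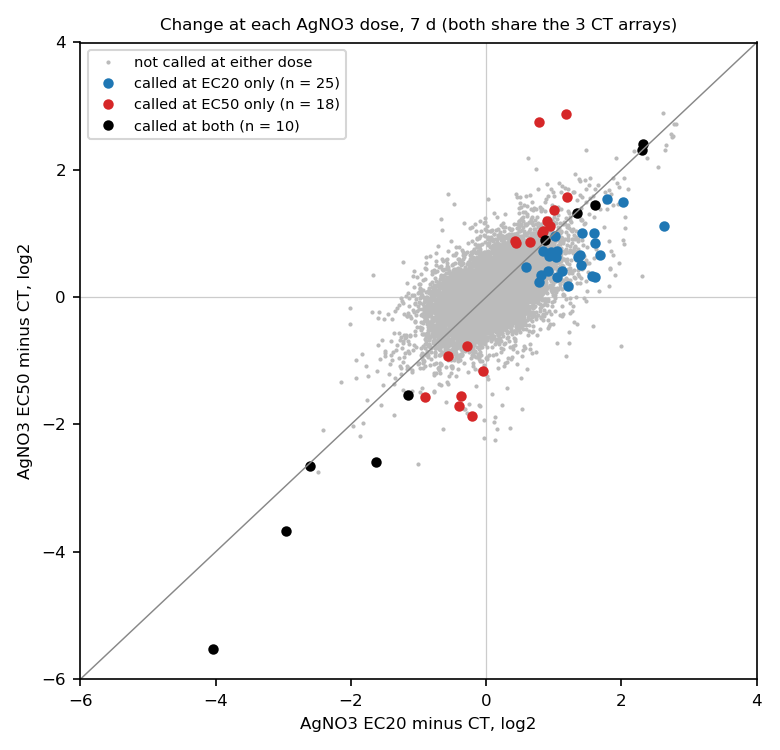
Log2 change at EC20 (horizontal) and at EC50 (vertical) of each kept probe at 7 d, with the 25 probes called at EC20 alone in blue, the 18 called at EC50 alone in red, the 10 called at both in black and all others in grey. The diagonal marks equal change, and since both axes subtract the same 3 CT arrays, part of the spread along it is shared. The 5 shared falls reach from -1.16 and -1.54 to -4.04 and -5.52.

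Compared directly, with no CT array involved, EC50 and EC20 differed at 1 probe (0.00431%), which was lower at EC50. It was GYUW2K401A6JGK, at 6.83, 7.12 and 7.33 in CT, 7.73, 7.72 and 7.55 at EC20, and 6.60, 6.60 and 6.96 at EC50. EC20 was above CT and EC50 overlapped with CT, and neither differed from CT by the FDR (changes of 0.57 with limma adjusted p = 0.148, and -0.38 with adjusted p = 0.614). EC50 was 1.93-fold lower than EC20 (log2 -0.95, SE 0.17, 95% interval -1.29 to -0.61, adjusted p = 0.0296), and -0.82 relative to the median of all probes. The call was not made under median (adjusted p = 0.268), quantile (0.242) or 75th percentile scaling (0.486), in the normalization of the 9 arrays alone (0.43), or without EC20 replicate 1 (0.517), EC20 replicate 2 (0.258) or EC50 replicate 2 (0.322), with the change between -0.90 and -0.78 in all of them.

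Probe by probe, the dose difference had a median of -0.13 over all kept probes, and 31.4% of probes were higher at EC50. Its 95% interval reached a median of 0.58 to either side (quartiles 0.42 and 0.8), or 1.49-fold, so that changes smaller than this were mostly not resolved. For 15902 probes (68.6%) the whole interval lay within 1 log2 unit of 0, or less than a doubling. These intervals hold for a probe taken singly and for this normalization, and are not a joint bound over the probes. For 1724 probes (7.44%) it left out 0, with 155 higher and 1569 lower at EC50, before any adjustment. A measured difference of more than 1 was seen for 288 probes (1.24%), 129 of them higher and 159 lower at EC50. The excess of negative differences depended on the scaling: the median was -0.29 under MedianCD, where 74 probes were called, all lower, and lay between -0.01 and 0.04 under median, quantile, 75th percentile and spike-in scaling and normalization of the 9 arrays, where 0 were called. No EC50 array shared a slide with an EC20 array, and with slide as a block 95 probes were called (8 higher, 87 lower).

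**Figure D5:**
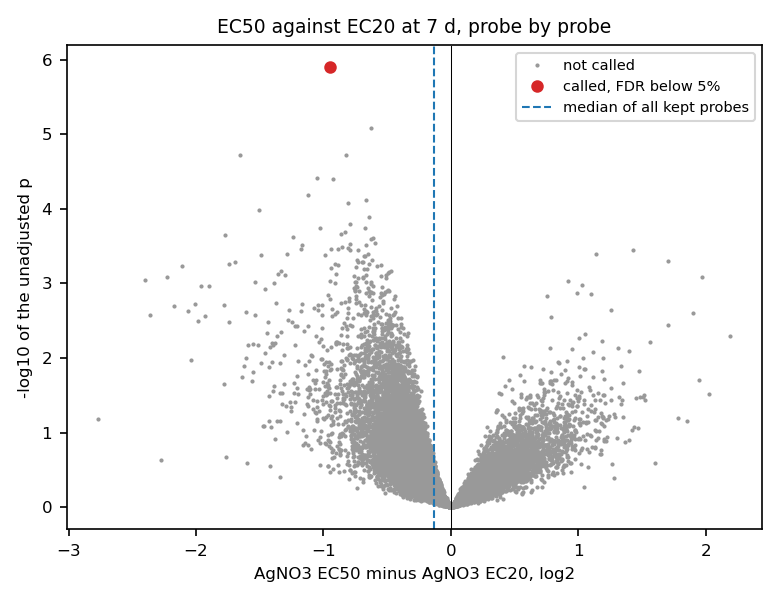
EC50 minus EC20 (horizontal, log2) against -log10 of the unadjusted limma p (vertical) for each kept probe at 7 d. The dashed line is the median of all probes (-0.13), 1569 of the 1724 probes with p under 5% lie on the lower side, and the single called probe is at -0.95.

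Counting arrays without a model leaned the same way, but on the same normalized values, so it is no separate support. All 3 EC20 arrays were above all 3 CT arrays for 5058 probes (21.8%) and below for 663 (2.86%). For EC50 against CT these were 2475 (10.7%) and 1306 (5.63%), and for EC50 against EC20 892 (3.85%) above and 4103 (17.7%) below. Of the probes that separated at EC20, 88.4% were thus above CT. That share was 97.3% under MedianCD, 54.1% under median scaling, 56% under quantile normalization, 51.7% with the 75th percentile and 37.8% under spike-in scaling. For EC50 against CT it was 65.5%, and 54.5% under median scaling. For EC50 against EC20 it was 17.9%, against 4.27% under MedianCD and 48.7% under quantile normalization, and it passed 50% under median scaling (50.3%), normalization of the 9 arrays alone (53.4%), the 75th percentile (67.3%), no filter (67.4%), normexp background correction (70.8%) and spike-in scaling (81.4%). Normexp also gave 14% for EC20 and 22.8% for EC50 against CT, and 84.6% and 83.7% without 2 arrays of other groups on which its fit failed. Direction counts over all probes therefore hold only for the processing named with them.

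Averaged over both doses, with 6 silver arrays against 3 CT arrays, 74 probes were called (0.319%), 62 higher and 12 lower. Their median absolute change was 1.04, or 2.06-fold. Of these, 41 were called at neither dose on its own, and 22 of the EC20 calls and 21 of the EC50 calls were among the 74. The highest measured changes were those of contig17320 and contig22277, the latter only a bound as given above, and the lowest were those of GYUW2K401DLXG6 and contig14604. Under the 5 scalings other than spike-in, 8 of the 62 higher and 9 of the 12 lower probes were called throughout. A moderated F-test for a change at either dose called 49 probes (0.211%), 9 of them called at neither dose singly.

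The same salt and effect levels were also sampled at 3 d, with their own 3 control arrays. At 3 d far more probes were called higher than their control, 12.2% at EC20 and 17.6% at EC50, while 0.66% and 0.38% were lower. These 3 d counts were not repeated under other scalings, on which the 7 d counts of higher probes depended. The median change over all kept probes was 0.19 at EC20 and 0.28 at EC50 at 3 d, against 0.17 and 0.03 at 7 d. The probes called at 7 d were often called at 3 d too and never in the opposite direction. Of the 30 higher EC20 calls of day 7, 9 (30%) were also higher at 3 d at EC20, and of the 16 higher EC50 calls 10 (62.5%) at EC50. Of the 5 lower EC20 calls 3 were lower at 3 d at EC20 (60%), and of the 12 lower EC50 calls 8 at EC50 (66.7%). The deep fall of GYUW2K401DLXG6 was seen at 3 d with changes of -2.72 (limma adjusted p = 0.0249) and -3.14 (adjusted p = 0.00859), and contig03857 rose by 2.10 (adjusted p = 9.86e-06) and 1.54 (adjusted p = 0.000698).

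Tested as a difference of effects, 7 d minus 3 d, 4 probes were called at EC20 (0.0173%) and 17 at EC50 (0.0733%), 16 of the latter lower at 7 d. These comparisons at EC20 and EC50 share their control arrays. The counts were 0 and 1 under MedianCD and under median scaling, and 21 and 155 without CT replicate 3. Named after its values were seen, contig02533 was called at both effect levels, by -1.81 at EC20 (SE 0.34, limma adjusted p = 0.0347) and -2.15 at EC50 (SE 0.34, adjusted p = 0.00219). At 7 d it read 6.44, 6.47 and 6.41 in CT, 6, 5.68 and 6.15 at EC20, and 5.76, 5.83 and 5.81 at EC50. At 3 d it read 4.93, 4.98 and 4.61 in CT, 6.18, 6.41 and 5.86 at EC20, and 6.42, 6.58 and 6.05 at EC50. Silver arrays were thus above their control at 3 d and below it at 7 d, the control itself being higher at 7 d. Only the 3 d changes were called, 1.31 at EC20 (adjusted p = 4e-04) and 1.51 at EC50 (adjusted p = 0.000152). The 7 d changes of -0.50 (adjusted p = 0.403) and -0.64 (adjusted p = 0.415) were not, so a fall at 7 d is not established. In contig14604 the EC50 effect at 7 d was 3.79 below that at 3 d (-3.79, SE 0.82, adjusted p = 0.0471), whereas the same contrast at EC20 was -3.22 (adjusted p = 0.125). Its 3 d control arrays were uneven, at 6.76, 3.90 and 4.05, and its silver changes at 3 d were 0.25 (adjusted p = 0.848) and 0.13 (adjusted p = 0.906).

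AgNO3 was also set directly against silver nanoparticles of the same effect level at 7 d. PVP-Coated particles differed from AgNO3 at 6 probes at EC20 (0.0259%) and 11 at EC50 (0.0475%), and Non-Coated particles at 1 probe at each level (0.00431% and 0.00431%). The PVP-Coated count at EC50 was 541 with slide as a block, 490 with slide as a random block and 101 under a scan day block. At EC20 these counts were 3, 32 and 24. Without EC20 replicate 3 of AgNO3, the EC20 counts were 67 for PVP-Coated and 17 for Non-Coated. GYUW2K401DLXG6, already low with AgNO3, was lower still with PVP-Coated at EC20, where it read 5.10, 5.74 and 6.46, a difference of -4.14 from AgNO3 (SE 0.83, limma adjusted p = 0.0455). The difference was also negative with Non-Coated at EC20 (-3.64), PVP-Coated at EC50 (-3.36) and Non-Coated at EC50 (-2.33), none of which passed the FDR. In contig19057 the rise at EC50 was absent from the PVP-Coated arrays, which read 6.87, 7.67 and 7.79 and were below AgNO3 by 3.45 (-3.45, SE 0.55, adjusted p = 0.00317). It was not particular to AgNO3. With Ag NM300K at EC50, set against its own control below, the probe rose by 2.13 (adjusted p = 0.0164), with uneven arrays at 8.12, 9.95 and 12.66. In CT the probe averaged 10.68 at 3 d and 8.14 at 7 d, against 10.89 with AgNO3 EC50 at 7 d. The fall of contig04717 at EC50 was not shared by the Non-Coated or PVP-Coated particles. Non-Coated read 10.11, 9.90 and 9.71 and was 1.90 above AgNO3 (adjusted p = 0.0439). PVP-Coated read 10.26, 9.36 and 9.42 and was 1.67 above AgNO3 (adjusted p = 0.0411). At 3 d AgNO3 changed contig04717 by -2.59 at EC50 (limma adjusted p = 1.68e-05) and -0.41 at EC20 (adjusted p = 0.486). With Ag NM300K at EC50 the probe averaged 8.88 at 3 d, against 10.23 in its own control, a difference that was not tested. At 7 d that change was -0.19 (adjusted p = 0.812). The remaining Non-Coated call at EC20 was GYUW2K402I2MHH, named after its values were seen, which was lower than AgNO3 by 1.58 (-1.58, SE 0.27, adjusted p = 0.014) with 9.22, 9.09 and 9.30 in AgNO3 and 7.75, 6.33 and 8.81 in Non-Coated. AgNO3 at EC20 was at the CT level there (9.20 ± 0.11 against 9.25 ± 0.16, SD, n = 3 each).

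The dispersed silver Ag NM300K was tested against arrays of its own control, soil mixed with its dispersants, so these arrays are independent of the 9. At EC20 NM300K raised 0.125% and lowered 0.173% of probes, and at EC50 5.32% and 0.418%. These shares were also not repeated under other scalings. All 5 lower EC20 calls of AgNO3 were also lower with NM300K at both levels, and the same 5 are the probes that fell at both AgNO3 doses. The changes with NM300K at EC20 and EC50 were -3.95 (limma adjusted p = 0.0235) and -6.80 (adjusted p = 5.42e-06) for GYUW2K401DLXG6, and -3.22 (adjusted p = 0.011) and -4.51 (adjusted p = 9.23e-06) for contig14604. Of the 12 lower EC50 calls, 7 (58.3%) were lower with NM300K at EC50. Among the 16 higher EC50 calls 12 (75%) were higher with NM300K at EC50, contig17320 by 2.59 (adjusted p = 0.00283) and contig22277 by 1.63 (adjusted p = 0.0035), and among the 30 higher EC20 calls 2 (6.67%) were higher with NM300K at EC20. None was called in the opposite direction.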

How the data were processed

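Total RNA of 60 pools of 20 whole worms was labelled with Cy3 and hybridized to 1-colour custom Agilent arrays, 9 of which are described here. The deposited intensity values were produced by the authors with Agilent Feature Extraction 10.7.3.1 (protocol GE1_107_Sep09, per the file headers), which corrects each array for background and applies no normalization between arrays. From these, log2 of the processed signal was taken for the 43750 gene probes, with the 1417 control spots left out. Probes positive and significant over background on all 60 arrays were kept, and 308 spots (in 299 kept probes) marked as outliers were set to missing. The number of arrays limits the precision.

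Arrays were normalized with SVCD (standard-vector condition decomposition), the method of the study, written anew here from its description. It centres arrays within groups and then groups against each other on probes that show no variation between groups (6587 of 22880 probes complete on all arrays). A limma 3.58.1 model (R 4.3.3) with 1 mean for each of the 20 groups gave two-sided moderated tests, adjusted by Benjamini-Hochberg over the 23179 kept probes, with FDR under 5%. Replicates are separate pools by the design text. Replicate numbers did not pair the arrays. The exact permutation test was used for the level of the arrays.

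For each comparison the 2 highest and 2 lowest changes among called probes without overlap between groups were named, and others were named after their values were seen, as the text says. Members, lists and tests were chosen with earlier results of these data known. A probe not well above background on any array of a group was given a bound, which applies to the mean of the brighter group. Per array, the higher of its own level and the lowest level well above background was taken. Alternatives were other scalings (MedianCD, median, quantile, 75th percentile, E1A spike-in probes, SVCD over the 9 arrays), normexp background correction, other filters, smaller fits, the methods' t-test, slide, scan day and replicate blocks, and each array left out in turn. The scripts were tested on simulated data. The deposited value table holds the same intensity values as the scanner files to within 0.498%, and no gene lists were used because probes carry no gene name.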

Additional observations from a re-analysis of the deposited data

Results flagged for a closer look

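The effect of AgNO3 differed between 7 d and 3 d by the limma test of the difference itself for 4 probes at EC20 and 17 at EC50. At EC20 the differences, 7 d minus 3 d on the log2 scale, were -2.5 for contig20033 (adjusted p = 0.0461), -1.81 for contig02533 (adjusted p = 0.0347), -1.79 for contig01277 (adjusted p = 0.0461) and -1.59 for GYUW2K401DD9KS (adjusted p = 0.02). At EC50 they were -3.79 for contig14604 (adjusted p = 0.0471), -2.29 for contig20033 (adjusted p = 0.0471) and -2.15 for contig02533 (adjusted p = 0.00219).

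The probes named here differed in shape, and in each of them CT was higher at 7 d than at 3 d. At 7 d contig20033 read 4.77, 4.26 and 3.99 in CT and 4.41, 3.82 and 4.40 at EC20, groups that overlap, whereas at 3 d it read 2.29, 3.04 and 1.64 in CT and 5.10, 4.23 and 4.75 at EC20, groups that do not. In contig01277 the 3 d levels were 5.50, 5.86 and 5.67 in CT and 7.78, 7.54 and 7.48 at EC20, and the 7 d levels were 6.65, 6.67 and 6.60 in CT and 7.56, 6.65 and 6.14 at EC20. GYUW2K401DD9KS changed by 1.47 at 3 d and had a change of -0.13 at 7 d at EC20. The 4 EC20 calls were thus higher in silver at 3 d, while contig14604 was lower in silver than in CT at 7 d. In contig14604 CT averaged 4.90 at 3 d and 8.33 at 7 d. Its AgNO3 means were 5.15 (EC20) and 5.03 (EC50) at 3 d, and 5.36 and 4.66 at 7 d, so the control differed most between the days. In the 4 EC20 calls the CT mean also rose from 3 d to 7 d, while the AgNO3 EC20 mean fell. CT went from 2.32 to 4.34 in contig20033 and from 4.84 to 6.44 in contig02533. It went from 5.67 to 6.64 in contig01277 and from 9.68 to 10.52 in GYUW2K401DD9KS.

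Outside the filter, 9 probes were well above background on the 3 EC50 arrays of day 7 and above background on no CT array. Their processed signals were 3 to 4.79 units in CT, 1.81 to 29 at EC20 and 6.8 to 29.4 at EC50. Each was well above background on 4 to 23 of the other 51 arrays. The count of such probes for EC20 was 0, and 0 probes showed the opposite pattern at either dose. Among the 9 arrays, those of EC50 also had the highest shares of probes well above background (59.6% to 65.7%, against 46% to 51% in CT and up to 85.4% over the 60 arrays), and the part of this in the 9 probes was not tested. The filter left out 20571 gene probes, of which 2284 were above background on all 9 arrays.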

How the results depend on the processing

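Settings are given in the order below, and a count not given was within 1.5 times its value in the report. Of these, scan day 1 alone and normexp without 2 arrays of other groups on which its fit failed, were chosen after seeing the data.

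The EC20 count (35) was 701 under MedianCD, 8 under median, 9 under quantile, 6 under 75th percentile and 1 under spike-in scaling, 6 with SVCD over the 9 arrays, 4 with normexp (12 without the 2 arrays), 23 for probes well above background on all 60 arrays, 0 with the compared groups alone, 1 with the 3 groups alone, 0 by the methods' t-test (3579 at an unadjusted p under 5%), 157 with a slide block, 204 with slide as a random block and 147 on scan day 1 alone. The EC50 count (28) was 6 under spike-in scaling, 9 with normexp (52 without the 2 arrays), 69 for probes well above background on all 60 arrays, 268 with no filter, 1 with the compared groups alone, 2 with the 3 groups alone, 0 by t-test (2241 unadjusted), 192 with a slide block, 263 with slide as a random block, 44 with a scan day block and 50 on scan day 1 alone. The EC50 minus EC20 count (1) was 74 under MedianCD, 95 with a slide block, 32 with slide as a random block, 2 with a scan day block, 106 on scan day 1 alone, and 0 under the other scalings, both normexp settings, probes well above background, no filter, smaller fits and the t-test (3051 unadjusted). The count for the mean of both doses (74) was 146 under MedianCD, 24 under median, 26 under quantile, 21 under 75th percentile and 6 under spike-in scaling, 41 with SVCD over the 9 arrays, 5 with normexp, 356 with no filter, 2 with each smaller fit, 245 with a slide block and 377 with slide as a random block. The F-test count (49) was 363, 18, 18, 16 and 6 in the order of the scalings, 17 with SVCD over the 9 arrays, 4 with normexp, 131 with no filter, 2 with the 3 groups alone, 392 with a slide block and 192 on scan day 1 alone. The count called at both doses (10) was 22 under MedianCD, 6 under 75th percentile, 1 under spike-in scaling, 6 with SVCD over the 9 arrays, 4 with normexp, 0 with the compared groups alone, 1 with the 3 groups alone, 0 by t-test, 28 with a slide block and 57 with slide as a random block.

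For 7 d minus 3 d at EC20 (4) the count was 0 under MedianCD, median and spike-in scaling, both normexp settings, no filter, the compared groups alone and the scan day block, 2 under quantile, 1 with the filter on the 9 arrays, 27 for probes well above background on all 60 arrays, 84 with a slide block and 221 with slide as a random block. At EC50 (17) it was 1 under MedianCD, median and 75th percentile scaling, both normexp settings and no filter, 0 under quantile and spike-in scaling and the compared groups alone, 6 with the filter on the 9 arrays and 310 with slide as a random block. The 4 particle comparisons together (19) gave 11, 7, 6, 8 and 3 under the scalings, 13821 with normexp (6 without the 2 arrays), 42 for probes well above background, 8 with no filter, 1 with the compared groups alone, 1 by t-test, 545 with a slide block, 523 with slide as a random block and 126 with a scan day block.

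Probes without overlap at EC20 (5721) numbered 8856, 3643, 3775, 3466 and 749 under the scalings and 8932 with no filter. At EC50 (3781) there were 303 under spike-in scaling and 15673 with no filter. For EC50 against EC20 (4995) there were 8057 under MedianCD, 3008 under quantile, 3193 under 75th percentile and 490 under spike-in scaling, 3215 with normexp (2983 without the 2 arrays) and 2736 for probes well above background. The level difference EC20 minus CT (0.15) was 0.314, -0.011, 0, -0.02 and -0.05 under the scalings, 0.017 with SVCD over the 9 arrays and -0.111 with normexp (0.095 without the 2 arrays). EC50 minus CT (0.06) was 0.018 under median, 0 under quantile and -0.009 under spike-in scaling, -0.071 with normexp (0.085), 0.094 for probes well above background and 0.176 with no filter. EC50 minus EC20 (-0.09) was -0.25, 0.029, 0, 0.077 and 0.041 under the scalings, 0.044 with SVCD over the 9 arrays, 0.04 with normexp (-0.01), -0.046 for probes well above background and 0.022 with no filter.

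Leaving out 1 array gave 3 (without EC20 replicate 1) to 102 calls (without CT replicate 2) at EC20, with 53 and 22 without CT replicates 1 and 3 and 18 and 85 without EC20 replicates 2 and 3. It gave 11 (without EC50 replicate 2) to 68 (without CT replicate 2) at EC50, with 44 without CT replicate 1 and 52 without EC50 replicate 3. Between the doses it gave 0 (without EC20 replicate 1 or 2 or EC50 replicate 2) to 23 (without EC50 replicate 3), with 18 without EC20 replicate 3 and 14 without EC50 replicate 1. For the mean it gave 25 (without EC50 replicate 1) to 114 (without CT replicate 2), with 45 without CT replicate 3, 46 and 32 without EC20 replicates 1 and 2, and 46 without EC50 replicate 3. The F-test gave 17 (without EC50 replicate 2) to 97 (without EC20 replicate 3), with 89 without CT replicate 2, 18 and 23 without EC20 replicates 1 and 2, and 79 without EC50 replicate 3. Called at both doses were 2 (without EC20 replicate 1) to 44 (without CT replicate 2), with 22 and 17 without CT replicates 1 and 3, and 6 without EC20 or EC50 replicate 2. For 7 d minus 3 d it gave 0 (without CT replicate 2 or EC20 replicate 3) to 21 (without CT replicate 3) at EC20, with 1 without EC20 replicate 2 and 2 without any EC50 array, and 1 to 155 (without CT replicate 3) at EC50, with 48 without EC50 replicate 3 and at most 6 without any other array. The particles gave 10 (without EC20 replicate 1 or 2) to 95 (without EC20 replicate 3), with 11 without CT replicate 2 and 31 without EC50 replicate 3. Probes without overlap numbered 5572 to 9467, 3785 to 6953 and 4864 to 8588, the highest without CT replicate 2, EC50 replicate 3 and EC20 replicate 3. Smaller groups separate more easily, so counts without an array of a compared group are raised by this alone. The lowest counts came without EC50 replicate 1, EC20 replicate 2 and CT replicate 2, which were outside the comparison in question. The level differences were 0.095 to 0.212, 0.002 to 0.119 and -0.153 to -0.041. The replicate block gave 51, 34, 1 and 73 calls for EC20, EC50, their difference and the mean, 6 for 7 d minus 3 d at EC50 and 11 for the particles. Same-numbered arrays correlated in their deviations at -0.209 to 0.37 and others at -0.288 to 0.356. The causes were not tested. The 25 results for named probes kept their direction in all 765 values, and 196 no longer passed the threshold. All 25 were chosen as called results, so a reversal was unlikely from the start. Not all called probes kept their direction. With normexp on all arrays, 31 of the 35 EC20 calls, 28 of the 28 EC50 calls and 70 of the 74 calls for the mean kept their direction. With 3 groups or 9 arrays alone or scan day 1 alone, comparisons with other times or materials cannot be had, and the F-test was not run for the compared groups alone, the t-test or slide as a random block.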
